A study of Mus musculus with 6 samples.

Results

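In the hearts of TG-PKR1 mice, 159 probes of 152 gene names gave a moderately lower signal than in wild type (WT) hearts, among 19996 probes of 13949 gene names in the normalized table. These probes were chosen by their measured values. In each of them all 3 TG values lay below all 3 WT values, and the mean of the TG hearts minus the mean of the WT hearts was above -1.0 and at most -0.4 on the log2 scale. The probes of Pparg (1) and Fabp4 (3) also met these limits and were set aside. Because the choice used the TG to WT difference in all 6 hearts, the differences given here describe the members and carry no test.

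PKR1 is a receptor for the secreted hormone prokineticin-2, and the study used microarrays to look for genes that depend on it in the heart. The TG-PKR1 mice carried a transgene that overexpresses PKR1 under the alpha myosin heavy chain promoter, which is active in cardiomyocytes. Both groups were labelled as males of 12 weeks, and the study's methods give a C57BL6/J background. Each group had 3 hearts with 1 heart per single-dye Agilent array. The whole heart was used, so that every cardiac cell type and any fat left on the organ contributed RNA. The hearts are called A, B and C within each group, and the letters carry no pairing.

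All 12 cardiomyocyte genes looked up, among them Myh6, Tnnt2 and Ryr2, were in the table, and their median difference of TG minus WT was 0.11. The 1 array probe of Prokr1, the gene of PKR1, was well above background on 0 of 6 arrays and was not in the table, so the arrays gave no check of the genotype. The arrays of WT A, TG B and TG C were scanned with an extended range, and WT B, WT C and TG A were scanned once. WT B and TG A shared a slide. The 75th percentile of the signal over the median background was 11.6 in WT A, 2.08 in WT B and 3.97 in WT C. It was 2.74 in TG A, 11.4 in TG B and 14.1 in TG C. The number of arrays and this ratio limit the precision of all values.

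A white adipocyte stores triglyceride in a large lipid droplet and releases fatty acids when lipases are activated, and it secretes hormones and complement proteins. A brown adipocyte burns the fatty acids to make heat and receives dense sympathetic nerve supply. Pparg and Cebpa are the transcription factors that drive and hold the adipocyte state, and many enzymes of fatty acid synthesis and many droplet proteins are their targets. Around the heart, such cells lie under the epicardium and along the coronary vessels.

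The members' differences ranged from -0.997 to -0.4 with a median of -0.59, which is a TG signal of 0.664 times the WT signal. Before Pparg and Fabp4 were set aside, 163 probes met the limits, 0.815% of the table. The mirrored limits for higher signal in the TG hearts, at least 0.4 and below 1.0 without overlap, were met by 46 probes, or 0.23%. All TG values lay below all WT values at any size of difference for 529 probes (2.65%), of which 64 (0.32%) had a difference of -1.0 or less. Just inside the lower limit lay Cebpa at -0.997 and the unnamed probe NAP028543-1 at -0.99, which were at -0.48 without WT A and at -0.63 without TG C. Just outside it lay NAP070880-1 at -1.003 and Retn, the hormone resistin, at -1.033. At the other limit, Grk3, a kinase that silences receptors, lay at -0.4 and NAP112348-1 at -0.403 (-0.18 without WT A), while Id2 and Nadk lay just outside at -0.397. The members are thus a stretch of a continuous range of differences.

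The gap between the lowest WT heart and the highest TG heart was small for most members. Its median was 0.13 log2 units, with a range from 0.01 to 0.65. It was 0.05 or less for 34 members and above 0.3 for 29. In 12 members the gap was wider than the whole range of the hearts within either group. Those 12 were the probes of Phlda3, Mgst1, Mrap, Slc36a2, Nnmt, Csad, Kbtbd11, Cd52, C1qtnf12, Abhd15, Rwdd1 and Gpat4. Of these, 9 were among the 38 of all 159 members later sorted by hand, with the names in view, as lipid and adipocyte genes, and 4 were on the written lists of fat genes, which held 21 of the 159.

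The member probes were not particularly dim. Their median level was 10.08 on the log2 scale, at percentile 59.7 of the table, and 98 of 159 lay at or above the table's median of 9.51. All were well above background on the 3 WT arrays, and 155 were so on all 6 arrays. The remaining 4 were above background on 2 of the 3 TG arrays. No member (0 of 159) was saturated on any array.

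By hand, with the names in view, the members were sorted into 9 functions. The largest class held 38 probes of lipid and adipocyte genes (median difference -0.61), followed by 20 of immunity and complement (-0.60) and 19 of signaling and growth control (-0.54). Other metabolic enzymes made up 18 probes (-0.52), matrix, adhesion and cytoskeleton 13 (-0.59), membrane transport 9 (-0.74), nerve and glia 8 (-0.69), and translation and RNA binding 7 (-0.58). The last 27 probes had another or no known function (-0.56). The classes overlapped, and the stretch shared by all 9 ran from -0.867 to -0.487.

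**Figure D1:**
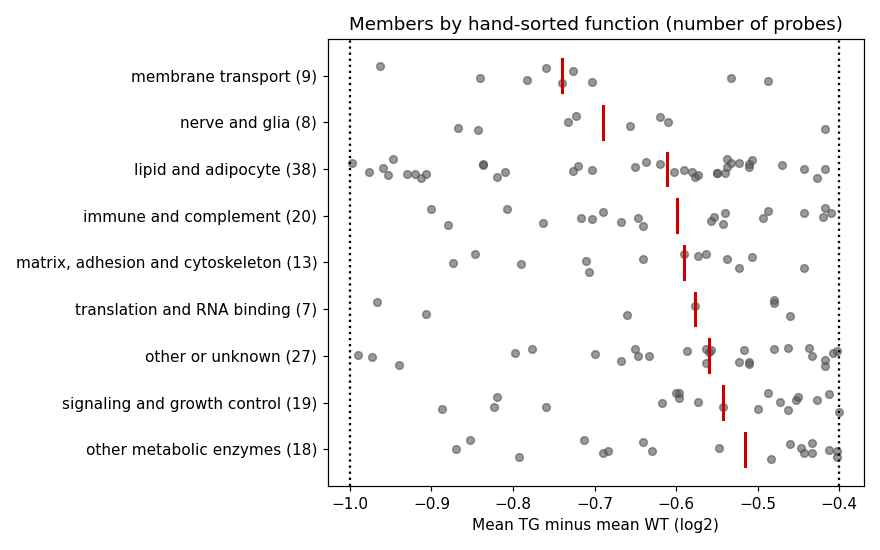
Each point is a member probe, placed by its mean TG minus mean WT difference (log2), with the function on the vertical axis, the number of probes in brackets and the median as a red line. Dotted lines mark the limits of -1.0 and -0.4, and the medians run from -0.74 for membrane transport to -0.52 for other metabolic enzymes.

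WT heart A and TG heart C stood apart from their groups. WT A was the highest WT heart in 90 members (56.6%), against 39.4% of the other probes of the table. TG C was the lowest TG heart in 99 members (62.3%), against 30.6% of the other probes. WT A lay more than 0.5 log2 units above both other WT hearts in 26 members (16.4%), against 5.34% of the other probes. TG C lay more than 0.5 below both other TG hearts in 30 members (18.9%), against 3.44%. Neither was the case in 105 members. Since the choice asked for high WT and low TG values, it favours probes with such hearts.

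The share led by WT A depended on the signal level. Among the 53 dimmest members WT A was the highest WT heart in 86.8%, while it was so in 41.0% of the other probes at that level. Among the 53 brightest the share was 30.2%, against 36.2% of the other probes. WT B, whose array had the lowest signal over background, was the lowest WT heart in 73.6% of the 53 dimmest members, against 23.7% of the other probes there. The share of TG C as the lowest TG heart was 64.2% in the dimmest and 60.4% in the brightest members. The part of the scan in the pattern was not tested.

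**Figure D2:**
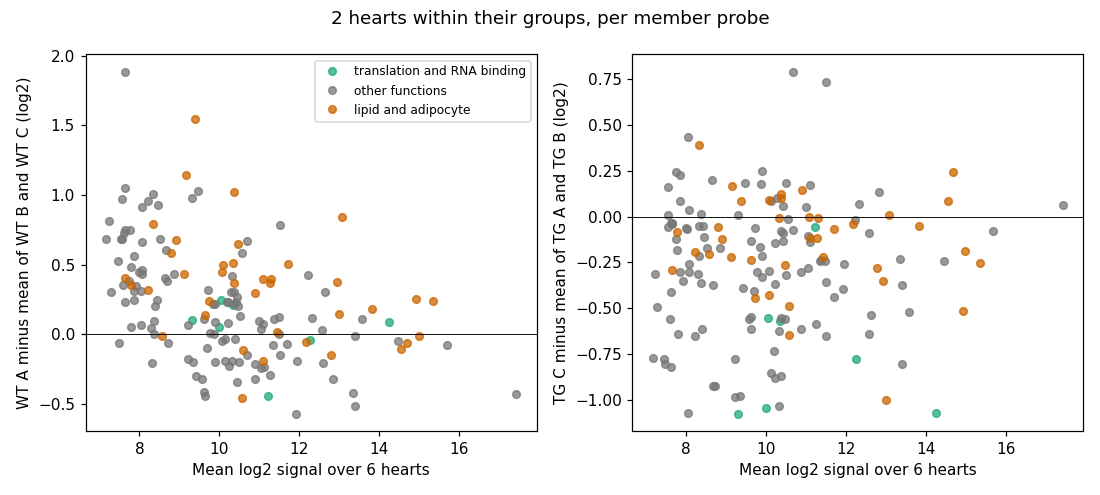
Each point is a member probe, with its mean log2 signal over 6 hearts on the horizontal axis. The left panel shows WT A minus the mean of the other WT hearts (log2), mostly above 0 among dim probes, and the right panel shows TG C minus the mean of the other TG hearts (log2), mostly below 0, with the translation probes among the lowest.

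Leaving out 1 heart gives a further description. The median difference of the members lay between -0.64 without WT B and -0.52 without TG C, and 85 of 159 members stayed at -0.4 or less whichever heart was left out. Without WT A, 35 members had a difference closer to 0 than -0.4, and without TG C, 39 had one. Within the extended-range scans the median difference was -0.77, and within the single scans it was -0.43. On the shared slide, TG A minus WT B had a median of -0.35. Within both scan modes, 72 members had a difference of -0.4 or less. The sign of these values was fixed by the choice of members.

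The 9 lists of lipid and fat genes, together 270 genes of which 229 had a probe in the table, were compared with the members. Of these 229 genes, 20 had a member probe (8.73%, and 13.2% of the 152 member names), where 1.09% of all gene names in the table had one. The lists were written by hand with earlier results of these data known, so these shares describe the overlap and do not test it. A further stretch of the same lists lay beyond the lower limit, since 40 of the 60 gene names with a difference of -1.0 or less were on the lists. Of the 40 adipocyte genes in the table, 8 other than Pparg were members, and the list for making fatty acids and triglycerides gave 5 of 46. The lipid droplet and lipolysis list gave 3 of 26, the brown adipocyte list 3 of 22 and the NADPH supply list 1 of 11. Uptake and transport of lipids (17 genes) and PPAR signaling (24) held no member apart from Fabp4 and Pparg. Beyond the lower limit lay Apoc1 and Cd1d1 of the first of these lists and Angptl4 and Ucp1 of the second. Fatty acid oxidation (0 of 23; median difference of the list 0.03) and cholesterol synthesis and uptake (0 of 26; -0.20) held none. Over all probes of the table the median difference was 0.01.

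Adipocyte markers moved with these genes. The summed signal (linear scale) of 10 such markers was 119574 to 167514 in WT and 33434 to 56741 in TG hearts, and all 10 had a lower TG mean. Without the 4 genes among them that had a member probe (Cebpa, Lipe, Car3 and Mrap) the sums were 104144 to 139360 and 26524 to 49141. These sums are no separate check. Of the markers left, Adipoq, Plin1, Cidec, Cfd and Retn lay beyond the lower limit of -1.0 without overlap in the same hearts. Cfd was the brightest marker in every heart and weighs most in the sums. The 6 brown adipocyte markers also all had a lower TG mean, with sums of 605362 to 692010 in WT and 495504 to 617731 in TG hearts, which overlap. Those sums mostly hold the bright Cox7a1 and Cox8b, subunits of cytochrome c oxidase (-0.03 each). The groups did not overlap for Ucp1, the heat-producing uncoupling protein (-3.17, gap 1.75), Cidea (-1.77, gap 1.29), Dio2 (-1.32, gap 0.63) and Prdm16 (-0.30, gap 0.03). In whole hearts, fewer cells of a type and less RNA per cell cannot be told apart, and the part of fat tissue left on the heart was not tested.

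**Figure D3:**
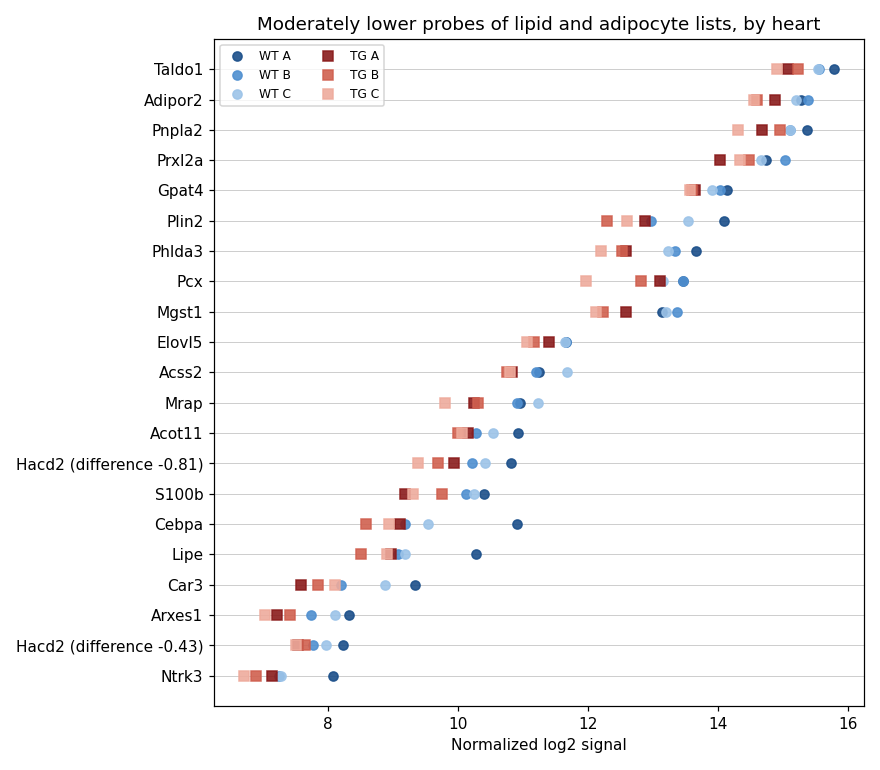
The normalized log2 signal (horizontal axis) of the 21 member probes of the lipid and adipocyte lists is shown for each heart, with WT as blue circles and TG as red squares. All red squares lie left of all blue circles in each row, by as much as 0.65 for Phlda3 and as little as 0.04 for Pcx, and WT A stands far to the right for Cebpa and Lipe.

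Among the regulators, Cebpa had the largest difference of all members. Its probe lies on chromosome 7 of the mm8 build, from 34830258 to 34830317. The log2 signals of Cebpa were 10.91, 9.19 and 9.54 in the WT hearts, always given in the order A, B and C. They were 9.12, 8.59 and 8.94 in the TG hearts, a difference of -0.997 (SD 0.91 in WT and 0.27 in TG hearts, n = 3 each). WT A was far above the other WT hearts, the gap to the highest TG heart was 0.07, and without WT A the difference was -0.48. Cebpb and Cebpd, relatives that act earlier in adipocyte formation, overlapped between the groups, with differences of 0.19 and -0.21 for the Cebpb probes and 0.10 for Cebpd. Phlda3, a p53 target that restrains Akt signaling, was also on the adipocyte list. Its signals were 13.67, 13.35 and 13.24 in WT and 12.59, 12.53 and 12.21 in TG hearts, and the gap of 0.65 was the widest among the members.

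Droplet and lipase genes formed the next group. Plin2 coats lipid droplets in many cell types, cardiomyocytes included. Plin2 read 14.10, 12.97 and 13.55 in WT and 12.88, 12.30 and 12.60 in TG hearts (difference -0.95, 0.519 times the WT signal). WT B and TG A nearly touched, 0.09 apart. Plin1, the droplet coat of adipocytes, lay beyond the limit with -2.15, and Plin3, Plin4 and Plin5 overlapped between the groups with differences of -0.02, -0.01 and 0.11. Lipe, hormone-sensitive lipase, read 10.28, 9.09 and 9.19 in WT and 8.98, 8.51 and 8.91 in TG hearts (-0.72). As with Cebpa, WT A alone stood high, and without it the difference of Lipe was -0.34. Pnpla2, the lipase that starts triglyceride breakdown, read 15.37, 15.12 and 15.12 in WT and 14.69, 14.96 and 14.31 in TG hearts (-0.55). Its WT values were tight and the TG hearts spread over 0.65. Abhd5, the activator of that lipase, overlapped for both probes (0.05 and -0.11). Abhd15, an adipocyte protein that limits lipolysis under insulin, read 8.82, 8.87 and 8.79 in WT and 8.35, 8.42 and 8.18 in TG hearts (-0.51). The spread within either group was small, and the difference of Abhd15 was -0.99 with the background-subtracted processed signal, which also changes the scaling.

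The synthesis genes among the members supply precursors or later steps. Acss2 makes acetyl-CoA from acetate, Pcx makes oxaloacetate from pyruvate, and Taldo1 is an enzyme of the pentose phosphate pathway, which yields NADPH. Acss2 read 11.25, 11.20 and 11.68 in WT and 10.84, 10.76 and 10.80 in TG hearts (-0.58), and its 3 TG values lay within 0.08. Taldo1 read 15.79, 15.56 and 15.54 in WT and 15.09, 15.24 and 14.91 in TG hearts (-0.55). Pcx read 13.46, 13.47 and 13.16 in WT and 13.12, 12.82 and 11.97 in TG hearts (-0.73). TG C was far below the others for Pcx, WT C and TG A were 0.04 apart, and without TG C the difference was -0.39.

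Elovl5 lengthens polyunsaturated fatty acids, Hacd2 takes part in the same elongation cycle, and Gpat4 attaches the first fatty acid to glycerol phosphate. Elovl5 read 11.67, 11.66 and 11.65 in WT and 11.41, 11.17 and 11.07 in TG hearts (-0.44), the tightest WT values among these genes. Gpat4 read 14.15, 14.03 and 13.91 in WT and 13.65, 13.61 and 13.58 in TG hearts (-0.42). The 2 probes of Hacd2 had differences of -0.81 and -0.43. Beside them, Elovl6 at -2.65 and Tkt, the partner of Taldo1, at -2.09 lay beyond the lower limit, while Gpam and the 3 probes of Dgat2 overlapped (0.03 and -0.20 to 0.12). The 2 probes of Agpat2 (-0.54 and -0.55, gap -0.03 in each) and the 2 of Pgd (-0.5 and -0.78) overlapped with lower TG means.

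Receptors and signals of the adipocyte were the next group. Adipor2, a receptor of adiponectin, read 15.28, 15.39 and 15.20 in WT and 14.89, 14.61 and 14.56 in TG hearts (-0.60). Its gap was 0.31, and a second, dimmer probe of Adipor2 had a difference of -0.31 and a gap of 0.07. The hormone gene Adipoq had a difference of -1.88, and the 3 probes of Adipor1 overlapped with differences of 0.01, 0.48 and 0.05. Mrap brings the corticotropin receptor to the cell surface and is abundant in fat. Mrap read 10.96, 10.92 and 11.23 in WT and 10.26, 10.31 and 9.80 in TG hearts (-0.91, 0.531 times WT). The lowest WT heart was 0.61 above the highest TG heart. Nrg4, a factor secreted by brown fat, read 9.81, 8.94 and 9.33 in WT and 8.31, 8.68 and 8.37 in TG hearts (-0.91). C1qtnf12, the adipokine adipolin, read 12.40, 12.42 and 12.49 in WT and 11.75, 12.07 and 11.87 in TG hearts (-0.54). Adora1, a receptor that restrains lipolysis, had a difference of -0.64 at the member probe and -0.02 and -0.28 at 2 other probes.

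Among the adipocyte enzymes, Mgst1, a glutathione transferase of membranes, read 13.15, 13.38 and 13.21 in WT and 12.59, 12.23 and 12.13 in TG hearts (-0.93). A second probe of Mgst1 lay beyond the limit at -1.08. Car3, a carbonic anhydrase abundant in fat, had a member probe at -0.96 (-1.89 with the processed signal) and a brighter probe at -1.79. Nnmt, which methylates nicotinamide, read 11.51, 11.23 and 11.20 in WT and 10.28, 10.61 and 10.59 in TG hearts (-0.82), with a gap of 0.59. Aoc3, an amine oxidase of fat and vessels, had a difference of -0.95 but a gap of 0.05, since TG B at 10.70 was close to WT A at 10.75. Arxes1 (-0.84), an adipocyte gene of the X chromosome, was above background on 2 of the 3 TG arrays, and its difference was -2.32 with the processed signal. Prxl2a (-0.54), a peroxiredoxin-like protein, and Acot11 (-0.51), a thioesterase induced by cold in brown fat, complete the listed genes of this group. Without WT A the difference of Acot11 was -0.34.

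Other members with wide gaps are known from fat tissue without being on the lists. Slc36a2, an amino acid transporter used as a surface marker of brown fat, read 12.46, 11.92 and 11.99 in WT and 11.35, 11.27 and 11.24 in TG hearts (-0.84). Its TG values lay within 0.11 of each other. Fam13a, a gene near variants for fat distribution and insulin resistance in humans, had 2 member probes at -0.59 and -0.54, the second at -0.20 without WT A. Deptor, an inhibitor of the mTOR kinase that promotes adipocyte formation, read 11.81, 11.48 and 11.41 in WT and 11.00, 11.05 and 10.91 in TG hearts (-0.58), and a second Deptor probe had -0.34 with a gap of 0.04. Kbtbd11 had a difference of -0.62 and a gap of 0.34.

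For 96 of the 152 member names, RefSeq promoter sequences of the GRCm38.p6 build were at hand, 126 promoters of 300 bases (250 before and 50 after the gene start). Both strands were searched for 5 motifs. The nuclear receptor half-site AGGTCA was in 11.9% of the member promoters, 12.6% of the promoters of all genes in the table and 16.3% of all 32851 promoters. The E-box CACGTG, bound by basic helix-loop-helix factors, was in 13.5% of the member promoters, 9.75% of those of the table and 7.15% of all. The cyclic AMP response element TGACGTCA was in 1.59% against 2.9% and 1.79%. The sterol regulatory element TCACNCCAC was in 2.38% against 1.13% and 1.24%. The palindrome TTGCGCAA, a site of the C/EBP family, was in 0% of the member promoters, 0.27% of those of the table and 0.183% of all. These shares are descriptions, and a match is not a bound site.

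Of the 37 promoters of lipid members, 7 held the E-box. They are those of Plin2, Lipe, Elovl5, Pcx, Acot11 and Prxl2a, the last with 2 promoters. The 2 promoters of Prxl2a overlap and hold the same E-box, so that the same site counts in both. In Plin2 the E-box spans the gene start. For the others, the stretch around it is shown 5′ to 3′ on the gene's strand, with the E-box in capitals. This sets their windows side by side.
Lipe, minus strand, chr7:25396097-25396182: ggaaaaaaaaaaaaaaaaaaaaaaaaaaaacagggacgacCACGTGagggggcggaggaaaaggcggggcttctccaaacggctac
Elovl5, plus strand, chr9:77917164-77917249: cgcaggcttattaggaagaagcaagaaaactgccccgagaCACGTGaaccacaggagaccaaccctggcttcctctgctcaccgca
Acot11, minus strand, chr4:106799940-106800025: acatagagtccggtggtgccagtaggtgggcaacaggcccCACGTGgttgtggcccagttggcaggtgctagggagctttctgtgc
Prxl2a, minus strand, chr14:41013816-41013901: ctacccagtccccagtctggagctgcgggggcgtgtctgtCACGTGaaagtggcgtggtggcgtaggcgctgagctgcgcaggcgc
Pcx, plus strand, chr19:4510222-4510269: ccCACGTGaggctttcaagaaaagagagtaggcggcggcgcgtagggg
The E-box starts 155 bases before the gene start in Lipe, 161 in Elovl5, 154 in Acot11, 57 in the Prxl2a promoter shown and 248 in Pcx. Outside the motif these windows differ.

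Nrg4 is shown because its promoter held the nuclear receptor half-site AGGTCA at 2 places, both on the strand opposite the gene. On the gene's strand, shown here, the site reads TGACCT.
Nrg4, upstream site, minus strand, chr9:55283670-55283755: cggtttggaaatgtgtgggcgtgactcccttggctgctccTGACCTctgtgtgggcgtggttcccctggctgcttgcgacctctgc
Nrg4, downstream site, minus strand, chr9:55283626-55283691: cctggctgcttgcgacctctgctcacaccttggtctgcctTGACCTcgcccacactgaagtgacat
They start 90 and 26 bases before the gene start.

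The immune and complement class held 20 probes. Complement is a cascade of plasma proteins, and adipocytes are a known source of its alternative pathway, in which factor D (Cfd) cuts factor B (Cfb) to activate C3. C3 read 15.90, 16.22 and 15.74 in WT and 15.60, 15.28 and 15.36 in TG hearts (-0.54, 0.688 times WT). All 3 TG hearts were below WT C, with a gap of 0.14. Cfb read 10.47, 9.42 and 9.47 in WT and 9.38, 8.78 and 9.26 in TG hearts (-0.65), WT A alone was high, and without it the difference of Cfb was -0.31. C2, the counterpart of factor B in the classical pathway, read 11.84, 12.00 and 11.43 in WT and 11.15, 11.42 and 11.04 in TG hearts (-0.55), with a gap of 0.01, and a second C2 probe overlapped at -0.23. Cfd lay beyond the limit at -1.77. The stabilizer Cfp (-0.36), C4b (-0.28) and C1qa (0.05) overlapped between the groups.

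Interferon-response genes of 1 family gave 3 member probes. The 2 probes of Ifi27l2a, an interferon-inducible mitochondrial protein, had differences of -0.90 and -0.76. The brighter of them read 14.10, 14.20 and 13.78 in WT and 13.16, 13.44 and 12.78 in TG hearts. Its neighbour Ifi27 had a member probe at -0.72 and another at -1.36. Transcripts of such close relatives may bind each other's probes, which was not tested.

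Antigen presentation genes Cd74 (-0.49), the invariant chain, and Ctss (-0.49), the protease that cuts it, were members, while the 2 probes of H2-Aa and the 4 of H2-Ab1, which pair with that chain, overlapped (-0.30 to 0.19). Cd52, a surface peptide of lymphocytes, read 10.87, 10.64 and 10.84 in WT and 10.15, 10.21 and 10.36 in TG hearts (-0.54). Ighm, the heavy chain of IgM, read 12.44, 11.69 and 11.62 in WT and 10.68, 11.05 and 11.60 in TG hearts (-0.81). Here TG C was the highest TG heart and reached WT C within 0.02, and a second Ighm probe overlapped at -1.25. Among the TG hearts, the B cell markers Cd79b and Ms4a1 had the same order, with 9.60 and 9.01 in TG C against 8.31 to 8.72 and 7.44 to 7.83 in the other TG hearts. Both overlapped with the WT hearts. The summed signal of 4 lymphocyte markers was 1178 to 2519 in WT and 815 to 1673 in TG hearts, and that of 8 macrophage markers was 72735 to 120241 and 64822 to 82177. The part of these cells in the class was not tested.

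Among the 8 nerve and glia probes, S100b, a calcium-binding protein of Schwann cells that brown adipocytes also make, read 10.41, 10.13 and 10.25 in WT and 9.19, 9.76 and 9.31 in TG hearts (-0.84). Mbp, the myelin basic protein, had 2 member probes at -0.72 and -0.66, the first at -0.47 without WT A. The brighter probe of Mbp read 10.41, 10.62 and 10.65 in WT and 9.82, 10.23 and 9.66 in TG hearts. In S100b and in this probe of Mbp, TG B lay closest to the WT hearts. Ntrk3, the receptor of neurotrophin-3, had a difference of -0.62 with WT A alone high (8.08 against 7.26 and 7.28), and of -0.35 without WT A. With the processed signal it was -1.66, and the median of the nerve and glia class was -1.62. Its relative Ntrk2 had 2 probes beyond the limit at -1.77 and -1.37. The Schwann and nerve markers Sox10 (-0.11) and Uchl1 (-0.08) overlapped between the groups. The part of nerve and Schwann cells in the class was not tested.

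Membrane transport had the lowest class median, -0.74, in the deposited values with all hearts. With the processed signal it was -1.31, against -1.62 for nerve and glia. The nerve and glia median was also lower without WT B (-0.84 against -0.7) and without TG A (-0.73 against -0.69). Sfxn1, the mitochondrial serine carrier, had 2 member probes at -0.76 and -0.53, and its relative Sfxn5 had -0.74, whereas Sfxn3 overlapped at -0.15. Without WT A the second Sfxn1 probe had -0.34 and Sfxn5 had -0.44. The brighter probe of Sfxn1 read 11.82, 11.87 and 11.55 in WT and 10.73, 11.40 and 10.83 in TG hearts. TG B lay near the WT hearts there. Slc1a5, the glutamine transporter, read 12.77, 12.97 and 12.33 in WT and 11.88, 12.00 and 12.01 in TG hearts (-0.73). Its relative Slc1a3, a glutamate transporter, had -0.84 with WT A high at 9.40 against 8.70 and 8.73.

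The other enzymes had a class median of -0.52, or -0.81 with the processed signal. Among them, Csad makes hypotaurine on the way to taurine. Csad read 11.41, 11.11 and 11.52 in WT and 10.64, 10.64 and 10.69 in TG hearts (-0.69), and a second Csad probe overlapped at -0.75. Cdo1, the enzyme before it, lay beyond the limit at -1.98. Amy1, an amylase, read 11.54, 11.25 and 11.68 in WT and 10.46, 10.82 and 10.81 in TG hearts (-0.79), and a second probe at -0.69 overlapped by 0.02. Carbonic anhydrases Car13 (-0.63) and Car5b (-0.55) accompanied Car3, at -0.40 and -0.32 without WT A. Mt2, a metal-binding protein induced by stress and glucocorticoids, had -0.85 with WT B high at 14.46, and -0.54 without WT B. Cox6a1, a subunit of cytochrome c oxidase, was the brightest member, at 17.37, 17.80 and 17.79 in WT and 17.14, 17.23 and 17.25 in TG hearts (-0.45).

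In signaling, Itpka, which phosphorylates inositol trisphosphate, read 9.51, 8.97 and 8.84 in WT and 8.31, 8.38 and 7.97 in TG hearts (-0.89, or -1.47 with the processed signal). Ppm1m, a protein phosphatase, read 11.82, 12.22 and 11.72 in WT and 11.14, 11.29 and 10.86 in TG hearts (-0.82). In both genes the gap exceeded 0.4. Kctd15 (-0.82) and the small GTPase Rhou (-0.76) were lowest in TG C, at 9.39 and 8.81, and without TG C the difference of Kctd15 was -0.53. Igf1, the insulin-like growth factor, had a member probe at -0.45 (-0.29 without WT B) with a gap of 0.05 and another at -0.32 with a gap of 0.08. Carhsp1, an RNA-binding phosphoprotein, had 2 member probes at -0.50 and -0.43. Agtrap, a protein that draws the angiotensin receptor into the cell, had -0.60, while its 3 other probes had -0.07 to 0.01.

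The 13 probes of matrix, adhesion and cytoskeleton held the collagens Col2a1 (-0.79) and Col5a3 (-0.59), the integrins Itgb3 (-0.57) and Itga8 (-0.54), and Ltbp2 (-0.56), which binds elastic fibres. Col5a3, a minor fibrillar collagen, read 10.50, 10.46 and 11.23 in WT and 10.11, 10.13 and 10.18 in TG hearts. Its TG values were tight and WT C stood high, and without WT C the difference of Col5a3 was -0.34. Itgb3, which pairs with alpha chains in platelets and vessels, read 8.97, 9.05 and 9.01 in WT and 8.73, 8.76 and 7.82 in TG hearts. Here the WT values were tight and TG C stood low, as in 4 of the 13 probes by more than 0.5. Without TG C the difference of Itgb3 was -0.27, and without WT B that of Itga8 was -0.34. A second Col2a1 probe had a difference of 0.01, and second probes of Itgb3 (-0.37) and Itga8 (-0.40) overlapped between the groups. With the processed signal the class median was -0.89.

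**Figure D4:**
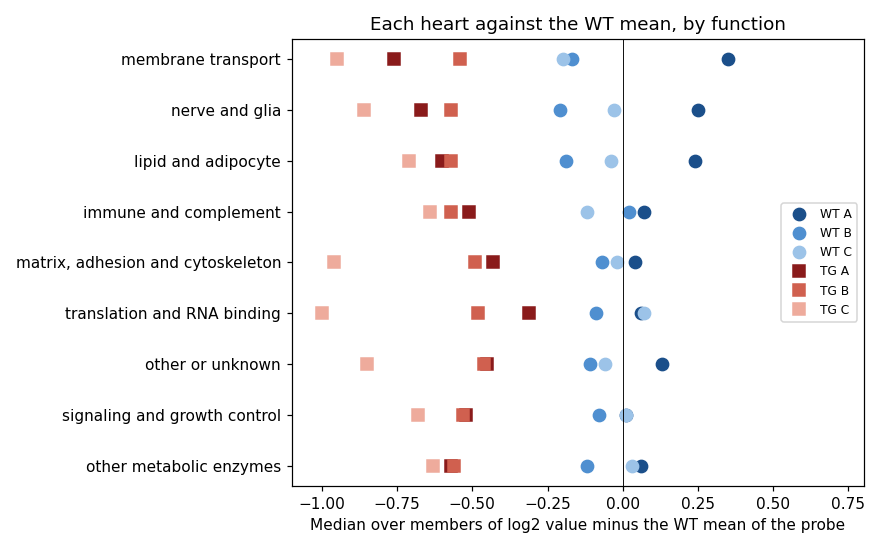
For each function, the median over its members of the log2 value minus the probe's WT mean (horizontal axis) is shown per heart, with WT as blue circles and TG as red squares. TG C lies farthest left in all 9 functions, at -1.0 for translation and RNA binding against -0.31 for TG A, and WT A reaches 0.35 for membrane transport, 0.25 for nerve and glia and 0.24 for lipid and adipocyte genes.

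The probes of translation and RNA binding followed TG C most. Against the WT mean, the class median was -0.31, -0.48 and -1.0 in TG A, B and C, and without TG C the median difference was -0.39. In 5 of the 7, TG C was more than 0.5 below both other TG hearts, against 1 of the 38 lipid probes. Rps19, a protein of the small ribosomal subunit, read 10.72, 10.37 and 10.65 in WT and 10.26, 10.32 and 9.72 in TG hearts (-0.48). A second, far brighter Rps19 probe overlapped with a difference of -0.09. Eif1, an initiation factor, behaved alike, with -0.48 at the member probe and -0.01 at a brighter one. Rplp1-ps1, a ribosomal pseudogene, read 14.64, 14.54 and 14.57 in WT and 14.37, 14.19 and 13.21 in TG hearts. Without TG C the differences were -0.29 for Rps19, -0.22 for Eif1 and -0.30 for Rplp1-ps1. The odorant receptor probe Olfr1153 (10.55, 9.81 and 9.15 in TG A, B and C) showed the same low value in TG C and had a difference of -0.97, or -0.63 without TG C. Such a value, by more than 0.5, was seen in 10 of the 27 probes of other or unknown function. BC048507, of unknown function, had 2 member probes at -0.65 and -0.59, the second at -0.34 without WT C.

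For 44 member names the table held 60 further probes that were not members. They come from the same hearts, and a second probe that met the limits, as in BC048507, Carhsp1, Fam13a, Hacd2, Ifi27l2a, Mbp and Sfxn1, is left out of them by its own values. The values of these 60 are therefore a description shaped by the choice. Their median difference was -0.18, and 47 of them (78.3%) had a lower TG mean, against 45.6% of all probes. The groups did not overlap in 7 of the 60, and 4 of these had a difference of -1.0 or less, those of Car3, Ifi27, Mgst1 and 4931406C07Rik. Without WT A the member probe of 4931406C07Rik moved from -0.78 to -0.45. For Lipe the other probe had -0.54, for Acss2 -0.28, for Elovl5 -0.31 and for Pnpla2 -0.21, and for Gpat4 the 2 others had -0.18 and -0.03. In Tomm70a, a mitochondrial import receptor, 3 other probes with WT means of 11.39 to 11.92 had differences of -0.04 to 0.12. The member probe had a WT mean of 7.87 and a difference of -0.49, or -0.21 without TG C.

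**Figure D5:**
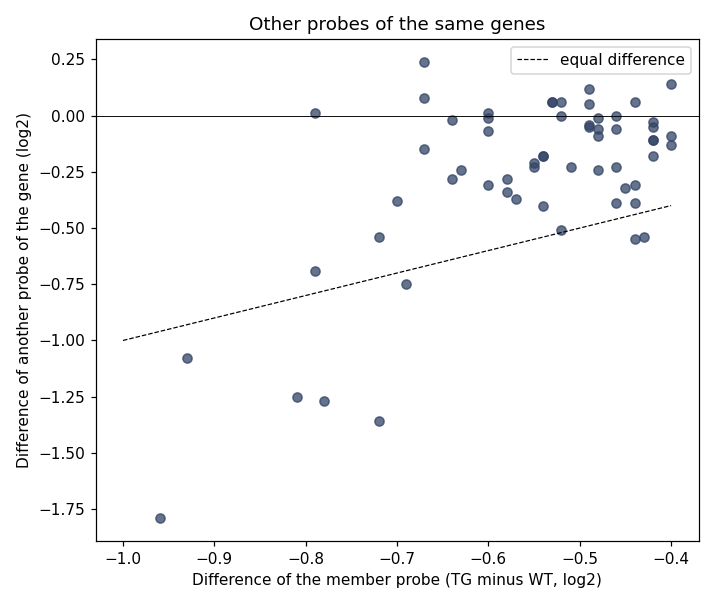
Each point is a probe of a member gene that did not itself meet the limits, with its TG minus WT difference (log2) on the vertical axis and the lowest difference of the gene's member probes on the horizontal axis. Most of the 60 points lie between the line of equal difference and 0, with the Car3 probe at -1.79 as the lowest.

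By position, 158 members could be placed on mm8. Chromosome 7 held 16 of them, 10.1% against 7.17% of all probes. Some members of related function lay close together. The probes of Cfb and C2 on chromosome 17 started 6073 bases apart, those of Ifi27l2a and Ifi27 on chromosome 12 were 12822 apart, and those of the serpins Serpina3g (-0.67) and Serpina3m (-0.44) were 152297 apart on the same chromosome. Taldo1 and Pnpla2, both at -0.55, were 57166 apart on chromosome 7, and Car13 and Car3 were 203144 apart on chromosome 3.

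Of the cell types of the heart itself, fibroblast (8 markers), epicardial (7), endothelial (8) and smooth muscle (4) sums overlapped between the groups, and none of these lists held a member. The epicardial sums, for instance, were 9115 to 11008 in WT and 6989 to 9660 in TG hearts. The endothelial sums were 32384 to 38088 in WT and 32503 to 34046 in TG hearts. A lower TG mean was found for 5 of the 8 fibroblast, 6 of the 7 epicardial, 6 of the 8 endothelial and 2 of the 4 smooth muscle markers. Among the epicardial markers, Upk1b and Lrrn4 (-0.23 each) did not overlap between the groups, with gaps of 0.05 and 0.02.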

How the data were processed

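RNA of 6 hearts was hybridized to Agilent single-dye arrays. The authors deposited scanner files with fluorescence intensity per spot (Agilent Feature Extraction 9.5.1.1), with other columns of software marks, and a table of log2 values. Per the paper's methods, control spots were removed, LOWESS was run against the median array, repeated probes were averaged, and the features with the highest median were kept. All value columns were matched to a heart. The table's log2 values follow the median signal without background subtraction.

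The limits were applied to the table in Python 3.11.15 with pandas 2.3.3. Probes were named by RefSeq accession (121 members), symbol (15), synonym (9) or the name in the files (14). Positions are those of mm8 in the files. Lists were written by hand. The members, the lists and the classes were chosen with earlier results of these data known. Genes were named as members of the fat lists, as the 14 others with the widest gaps, as genes with 2 or more member probes or as neighbours of the limits, and further examples were chosen after their values were seen. Marker and list sums use the brightest probe of a gene. The selection was tested on simulated data. Alternatives were made with limma and R (loess with span 0.3 and 4 iterations, normexp with offset 50) and by leaving out each heart. The values of some genes are not reported here.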

Additional observations from a re-analysis of the deposited data

How the results depend on the processing

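The median difference of the members (-0.59; median SD within a group 0.27) ran from -0.85 with background-subtracted signals scaled to each array's 75th percentile to -0.52 without TG C. The sign without a heart is fixed by the choice of members. The number of members moved by more than 1.5 times with the processed signal, to 308, of which 94 were shared with the 159, and to 409 where hearts may overlap. Leaving out 1 heart gave 174 to 543 members and 23 to 33 genes of the fat lists (20 with all hearts), because fewer hearts have to be parted. The count was 261, 322 and 250 without WT A, B and C and 334 and 543 without TG A and B. Loess on the scanner signals gave 162 probes, of which 128 were shared. Among named genes and classes, 14 values moved by more than their own within-group SD (for classes the median SD, 0.27), all with the processed signal, which changes background and scaling together. Examples are Arxes1 at -2.32, Car3 at -1.89 and the nerve and glia class at -1.62, while normexp and quantile gave -0.89, -1.19 and -0.74. Leaving out 1 heart moved Cebpa to -0.48 and Lipe to -0.34 without WT A and Pcx to -0.39 without TG C, which is within their own wider SD. Signal over background differed between the arrays, and its part in the values of the dim probes was not tested. The motif shares, with the promoter cut at the gene start or 1 promoter per gene (both added after seeing the data), stayed within the counting interval. No paired analysis was possible because the titles of only 1 WT and 1 TG heart, WT B and TG A, share a number. These hearts also shared a slide, and the labels do not say what the number stands for. Scan mode as a block gave 157 probes, of which 136 were shared, and 17 genes of the fat lists.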
